A study of Mus musculus with 6 samples.

Results

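The genes for calmodulin-dependent protein kinases and their inhibitor proteins were followed in N2A cells, a mouse neuroblastoma line with a neuronal character. Every probe set annotated to exactly 1 of 10 genes was taken: Camk2a, Camk2b, Camk2d and Camk2g for CaMKII, Camk1, Camk1d and Camk1g for CaMKI, Camk4 for CaMKIV, and Camk2n1 and Camk2n2 for the CaMKII inhibitors. Each gene had 1 probe set, giving 10 of the 21789 probe sets that carried a single gene symbol (19938 genes). The family was chosen on its differences between the groups described next, so these differences are given as a description, with no p-value for any of the 10 genes. Where calls of fits over all probe sets are counted among them, the count describes the fit and supports nothing about the family.

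Cells of the control group (3 arrays) were transfected with a non-targeting vector and those of the Dali knockdown group (3 arrays) with a construct expressing a short hairpin RNA against Dali, a long non-coding RNA transcribed next to Pou3f3. Every culture received 1.5 ug of construct with the reagent FuGENE, RNA was taken 2.5 days later, and Affymetrix mouse gene arrays were hybridised with material labelled from 200 ng. The question was which genes respond when Dali is reduced. Each group carried a single construct, the arrays of a group are called biological replicates without saying which cultures or days the numbers 1 to 3 stand for, and no probe set was annotated to Dali, so its depletion could not be checked on these arrays.

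Calcium entering a cell binds calmodulin, and loaded calmodulin relieves the autoinhibition of the CaM kinases. CaMKII forms large holoenzymes whose subunits phosphorylate each other and so keep activity after calcium has fallen, a property known for its part in synaptic plasticity. CaMKI and CaMKIV act as single subunits and are raised further by CaM kinase kinases. CaMKI is known for roles in axon and dendrite growth and CaMKIV for phosphorylating transcription factors such as CREB in the nucleus, while the small proteins encoded by Camk2n1 and Camk2n2 bind active CaMKII and block it.

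Promoter windows, the 250 bases before an annotated RefSeq start in GRCm38.p6, were found for 6 of the 10 genes (7 windows, since Camk1d has 2 starts). They are shown for 3 genes that behaved differently on the arrays: Camk1d with the largest difference between groups, Camk2b with a smaller difference but no overlap, and Camk2n2 with no lower mean. Each is printed 5′ to 3′ on the strand of its gene, here the minus strand, and capitals mark CpG dinucleotides, the sites of DNA methylation. The window of Camk1d is chr2:5714763-5715012, that of Camk2b chr11:6065749-6065998 and that of Camk2n2 chr16:20621279-20621528.
Camk1d: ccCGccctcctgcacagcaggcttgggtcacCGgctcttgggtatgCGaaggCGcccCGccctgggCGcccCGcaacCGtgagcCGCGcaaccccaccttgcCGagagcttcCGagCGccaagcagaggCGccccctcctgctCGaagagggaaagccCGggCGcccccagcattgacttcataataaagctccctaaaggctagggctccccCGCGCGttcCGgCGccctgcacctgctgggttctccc
Camk2b: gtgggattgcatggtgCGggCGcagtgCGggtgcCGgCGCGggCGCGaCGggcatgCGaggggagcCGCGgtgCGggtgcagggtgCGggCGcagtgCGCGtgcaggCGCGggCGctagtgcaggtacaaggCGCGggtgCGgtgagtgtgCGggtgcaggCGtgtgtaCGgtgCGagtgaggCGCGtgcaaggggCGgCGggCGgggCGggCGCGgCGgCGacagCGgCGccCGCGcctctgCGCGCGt
Camk2n2: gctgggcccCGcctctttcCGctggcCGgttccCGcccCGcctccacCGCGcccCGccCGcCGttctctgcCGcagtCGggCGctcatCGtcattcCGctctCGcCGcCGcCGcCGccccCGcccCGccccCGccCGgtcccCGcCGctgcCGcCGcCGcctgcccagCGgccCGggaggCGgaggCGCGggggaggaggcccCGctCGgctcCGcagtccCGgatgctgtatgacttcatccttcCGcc

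The GC content was 69.2% with 22 CpGs for Camk1d, 78.4% with 44 for Camk2b and 80% with 39 for Camk2n2, beside medians of 52.4% and 6 CpGs over 32851 windows of the same length. Of the 7 windows, 4 had a GC content of at least 50% together with an observed over expected CpG ratio of at least 0.6 (the first start of Camk1d, Camk2b, Camk2d and Camk2n2), against 31.0% of all windows. The second Camk1d start, chr2:5676047-5676296, differed from the first with 48.4% GC and 5 CpGs, and Camk1g had a single CpG. Thus a CpG-rich window was found both for genes with a lower level and for Camk2n2. Letters of 3 motifs were searched on both strands. The octamer ATGCAAAT, bound by POU-domain factors, was in 0 of the 7 windows (1.60% of all windows). The full cAMP response element TGACGTCA was also in 0 (1.55%), and its shorter form TGACG, which is contained in the full element, was in those of Camk1 and Camk2n2 (17.8%). A match or its absence only describes these letters in these windows.

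Array values are log2 expression estimates after robust multi-array averaging (RMA), so that a difference of 1 is a doubling. Values of different probe sets are not ranked against each other, except for percentiles among annotated probe sets, given as a rough guide to level. SD is over 3 arrays and SE is that of the fitted difference. Across the family the difference, Dali knockdown minus control, had a median of -0.22 over the 10 genes, beside 0.02 over all 19938 annotated genes. The mean was lower after knockdown for 9 of 10 genes (44.8% of annotated probe sets were lower), lower within every replicate number for 7 of 10 (19.7%), and without overlap between groups for 3 of 10 (6.84% of annotated probe sets did this in the lower direction and 15.4% in either). Since the genes were selected from this contrast, these shares are printed beside each other without reading more from them. In bulk RNA, a smaller number of cells of a kind and less RNA per cell cannot be told apart.

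**Figure D1:**
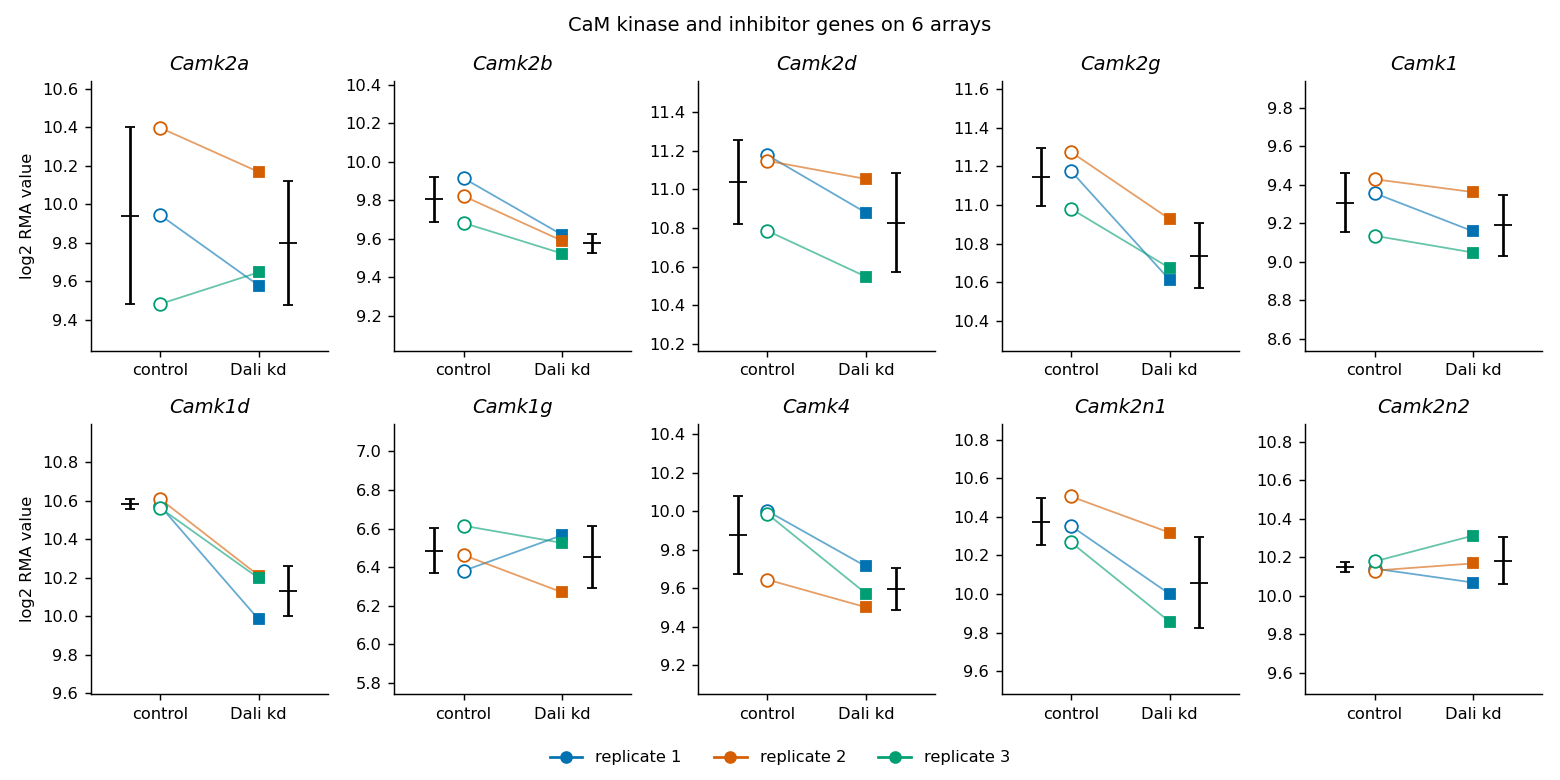
Log2 RMA values (vertical axis, the same span in every panel) of the 10 kinase and inhibitor genes on the 3 control arrays (open circles) and 3 Dali knockdown arrays (filled squares), with lines joining arrays of the same replicate number and bars showing mean ± SD. Camk1d, Camk2g and Camk2b have all knockdown arrays below all control arrays, while the pairs of Camk2n2 and Camk1g differ by at most 0.19 in either direction.

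CaMKII subunits came first by role. Camk2g encodes the gamma subunit, which occurs in many tissues and can carry calmodulin towards the nucleus. Its log2 values were 11.18, 11.28 and 10.98 in control replicates 1, 2 and 3, and 10.61, 10.93 and 10.67 in the knockdown arrays of the same numbers. All knockdown arrays lay below all control arrays, although the gap between control replicate 3 and knockdown replicate 2 was narrow. The mean went from 11.14 ± 0.15 to 10.74 ± 0.17 (SD, n = 3 each), a difference of -0.41 (SE 0.11) or 1.33-fold lower. Within replicate numbers 1, 2 and 3 the differences were -0.57, -0.35 and -0.31, so that each pair showed the same direction.

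Camk2b encodes the beta subunit, which binds actin filaments and brings CaMKII to the cytoskeleton. Control arrays gave 9.91, 9.82 and 9.68, and knockdown arrays 9.62, 9.59 and 9.52. The groups did not overlap, and the knockdown arrays were also the tighter group (SD 0.05, against 0.12 in the control). The difference of -0.23 (SE 0.09) corresponded to a level 1.17-fold lower, under the fold that was asked of a call. In numbers 1, 2 and 3 it was -0.29, -0.23 and -0.16.

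Camk2d encodes the delta subunit, the main form in heart. It measured 11.18, 11.15 and 10.79 in control arrays and 10.88, 11.05 and 10.55 after knockdown. Here the groups overlapped, because control replicate 3 was lower than knockdown replicates 1 and 2. The difference was -0.21 (SE 0.15), and each pair was lower, by -0.30, -0.09 and -0.24. In Camk2d, as in Camk2g, replicate 3 was the lowest control array.

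Camk2a encodes the alpha subunit, the main form of excitatory forebrain neurons. This gene varied most among replicates, with 9.95, 10.40 and 9.48 in control arrays and 9.58, 10.17 and 9.65 after knockdown. Replicate 2 was the highest array of both groups, and the groups overlapped over most of their range. The difference of -0.14 (SE 0.23) was smaller than the SD of either group (0.46 in control, 0.32 in knockdown), and its sign turned in number 3, where knockdown was higher by 0.17. Among the 4 CaMKII genes the mean was therefore lower for each, with a median difference of -0.22, but the 4 genes ranged from groups set apart (Camk2g, Camk2b) to groups that overlapped (Camk2d, Camk2a).

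The 3 CaMKI genes taken were more uneven, and Pnck, a further CaMKI gene, was counted with the other kinases below. Camk1d, which encodes the delta form of CaMKI, had the largest difference of the family. Control arrays lay close together at 10.57, 10.61 and 10.56, and knockdown arrays were at 9.98, 10.21 and 10.20. All knockdown arrays lay well below all control arrays, and replicate 1 stood lowest after knockdown. The mean went from 10.58 ± 0.024 to 10.13 ± 0.13 (SD, n = 3 each), a difference of -0.45 (SE 0.09) or 1.37-fold lower. Differences within numbers 1, 2 and 3 were -0.59, -0.40 and -0.37. Over all annotated genes, 1.58% had a lower difference than Camk1d.

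Camk1 encodes the alpha form of CaMKI, found in most tissues. Its values of 9.36, 9.43 and 9.14 in control arrays and 9.16, 9.36 and 9.05 after knockdown overlapped widely. The difference was -0.12 (SE 0.11), no larger than its SD in control arrays (0.15). Camk1g encodes the gamma form, which is anchored to membranes by lipid, and gave 6.38, 6.46 and 6.61 in control arrays and 6.57, 6.27 and 6.53 after knockdown. Its groups overlapped over most of their range, with a difference of -0.03 (SE 0.11) that was positive in number 1 and negative in numbers 2 and 3. The mean of this probe set was at the 20.4th percentile of all annotated probe sets, and no measure of signal over background accompanied these values, so a change in Camk1g may not have been detectable here.

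Camk4 encodes CaMKIV, the nuclear kinase of the group. Control arrays read 10.00, 9.64 and 9.99, and knockdown arrays 9.71, 9.50 and 9.57. Control replicate 2 stood apart from the other control arrays and lay below knockdown replicate 1, which made the groups overlap. The difference was -0.28 (SE 0.12), and it was -0.29, -0.14 and -0.41 in numbers 1, 2 and 3. Unlike Camk2a and Camk2g, Camk4 was lowest, not highest, in replicate 2 of each group.

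The inhibitors differed from each other. Camk2n1 gave 10.35, 10.51 and 10.27 in control arrays and 10.00, 10.32 and 9.86 after knockdown. Knockdown replicate 2 was above control replicate 3, so the groups overlapped, but each pair was lower, by -0.35, -0.19 and -0.41. The difference was -0.32 (SE 0.13), or 1.25-fold lower. Camk2n2 gave 10.14, 10.13 and 10.18 in control arrays and 10.07, 10.17 and 10.31 after knockdown. It was the member with a mean that was not lower, and the difference of 0.03 (SE 0.09) had an interval from -0.17 to 0.23 (95%, limma fit). Camk2n2 varied so little over the 6 arrays that a filter on variance removed it.

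**Figure D2:**
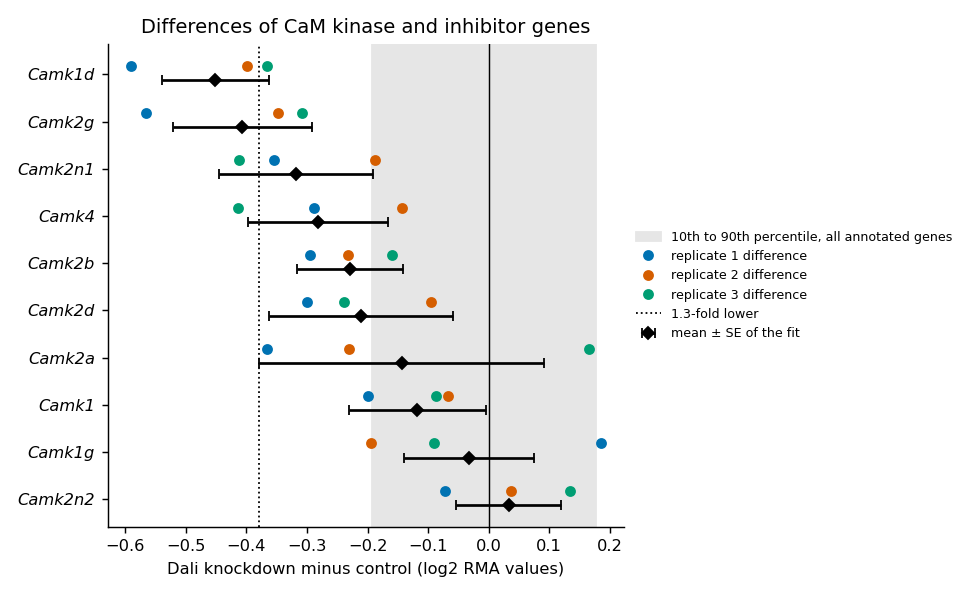
Difference in log2 RMA value, Dali knockdown minus control (horizontal axis), for each kinase and inhibitor gene (vertical axis), with dots for replicate numbers 1 to 3 and diamonds for the mean ± SE of the fit. The grey band spans the 10th to 90th percentile over all annotated genes (-0.19 to 0.18) and the dotted line marks 1.3-fold lower, which the means of Camk1d and Camk2g pass.

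A probe set was called when limma gave a Benjamini-Hochberg adjusted p under 0.1 together with a fold of at least 1.3, among the 11705 annotated probe sets whose interquartile range over the arrays was above the median. Of the 10 genes, 9 remained after that filter and 0 were called, where 1.14% of all probe sets tested were called. The fold of 1.3 is 0.38 on the log2 scale. Just inside it lay Camk2g with -0.41, and just outside it Camk2n1 with -0.32.

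Arrays of replicate numbers 2 and 3 deviated together (r = 0.65 for each), and those of number 1 only weakly (r = 0.14). The comparison was therefore also made with the replicate number as a block. With the replicate block, Camk1d and Camk2g were called, both lower, beside 7.65% of all probe sets tested (4.89% called lower). The SE of the paired difference was 0.07 for Camk1d and 0.08 for Camk2g. These genes were also called, without the block, when control replicate 3 was left out (6.37% of all probe sets tested were then called) and when knockdown replicate 2 was left out (6.11%), so calls rose over the whole array in both refits. Their differences were then -0.46 and -0.49 for Camk1d and -0.49 and -0.50 for Camk2g.

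The arrays differed along an axis that the groups explained only in part, and most of the family moved with it. The first principal component over all annotated probe sets held 47.6% of the variance. Control replicates 1, 2 and 3 had scores of -12.9, -22.6 and 10.4, and knockdown replicates 12.6, -11.0 and 23.3, so that control replicate 3 lay among the knockdown arrays. Within each replicate number the knockdown array scored higher, so the component also carried part of the contrast between groups. Camk1 followed it most closely, with a Pearson r of -0.99 over the 6 arrays. The value was -0.94 for Camk2d, -0.92 for Camk2n1, -0.89 for Camk2a, -0.86 for Camk2g and -0.72 for Camk2b. An r below -0.7 was found for 6 of the 10 genes and for 14.2% of annotated probe sets. Camk1d was looser with -0.56, Camk4 had -0.01, and Camk2n2 and Camk1g ran the other way with 0.47 and 0.66. The -0.01 of Camk4 is over both groups together. Within each group Camk4 was lowest in replicate 2, which also had the lowest score of its group. These correlations describe 6 arrays that share 2 groups and 3 replicate numbers.

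The order of the arrays was uneven in the same way. Control replicate 3 was the lowest control array for 7 of the 10 genes (30.1% of annotated probe sets), and control replicate 2 was the highest for 5 (25.1%). After knockdown, replicate 2 was the highest array for 6 (30.0%).

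With the component as a covariate in limma, an alternative added after the data had been seen, the genes separated. Camk1d kept a difference of -0.43 and was called (4.26% of probe sets tested were called), and Camk4 had -0.38, larger than without the covariate. Camk2g had -0.26, Camk2b -0.17 and Camk2n1 -0.15. Camk2d was at 0.00, Camk1 at 0.03 and Camk2a at 0.21, so the lower means of these genes were not present in that fit, which takes out the part of the group contrast that the component carries. What the component stands for, and its part in these differences, was not tested.

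**Figure D3:**
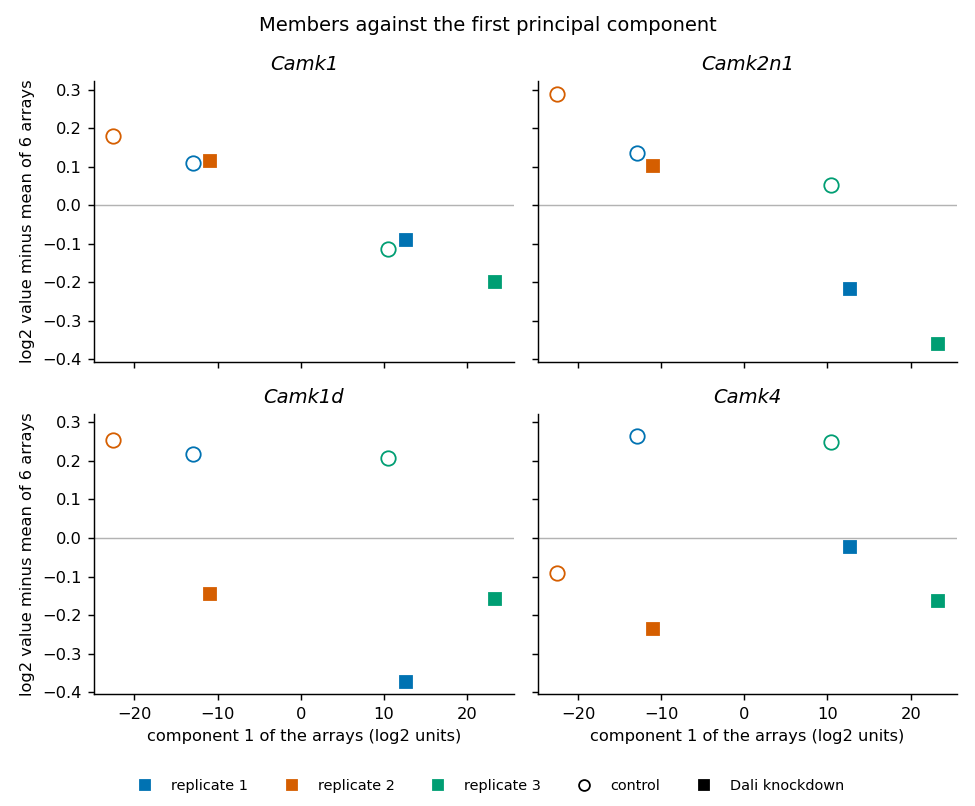
Log2 value of Camk1, Camk2n1, Camk1d and Camk4 on each array, as its deviation from the mean of 6 arrays (vertical axis), against the score on the first principal component (horizontal axis, log2 units), with open circles for control and filled squares for Dali knockdown. Camk1 runs downward along the component whatever the group (r = -0.99), whereas Camk1d has all control arrays above all knockdown arrays. Camk4 shows no slope over both groups together (r = -0.01), but replicate 2 has the lowest value and score within each group.

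Genes with the most similar pattern were looked up for the members with the largest differences, by Pearson r over the 6 arrays among annotated genes. Nearest to Camk1d were Map2k4, a kinase upstream of JNK (r = 0.994, with a difference of -0.49), Desi1 (0.994, -0.35), Zfp317 (0.993, -0.51), AI413582 (0.992, -0.33) and Zfp747 (0.992, -0.14). Nearest to Camk2g were Hyi (0.998, -0.27), Kcnab2, a beta subunit of potassium channels (0.997, -0.35), Gast, the gastrin gene (0.996, -0.23), Ninj1, an adhesion protein (0.994, -0.43) and Wdr44 (0.994, -0.30). Camk1d and Camk2g had an r of 0.90 with each other, and Camk2g and Camk2n1 of 0.93. With 6 arrays and this many genes, high values arise easily, and they only describe which profiles look alike.

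The rest of the calcium/calmodulin pathway gave a wider setting. Of 66 genes listed in 8 groups, 62 had a probe set of their own (67 probe sets, of which 35 passed the variance filter). None of these rose and none fell in limma, while 8 of the 67 had an unadjusted p under 0.05 without the filter, beside 10.7% of all annotated probe sets. The median difference over the 62 genes was -0.01, near the 0.02 over all annotated genes. Of these 62 genes 35 were lower, beside 44.8% of annotated probe sets. With the replicate block limma called 1 higher (Srf) and 3 lower (Dclk1, Eef2k and Phkg1) of the 35 tested, beside 7.65% of all probe sets tested.

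Upstream of the kinases, the 4 calmodulin genes measured had a median difference of 0.09. Calm3 went from 12.45 ± 0.15 to 12.65 ± 0.08 (SD, n = 3 each; limma without the filter, adjusted p = 0.54). Camkk2, the measured CaM kinase kinase, which phosphorylates CaMKI and CaMKIV, had a difference of -0.01 (limma adjusted p = 0.99). Neither the activator nor the kinase above CaMKI and CaMKIV therefore passed the test.

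Of the other kinases bound by calmodulin or built like CaM kinases, 9 of 13 genes had a lower mean (44.8% of annotated probe sets were lower). The median difference was -0.06. Pnck, which encodes the beta form of CaMKI, was counted here. It was lower in each pair, with a difference of -0.25 and overlapping groups (limma adjusted p = 0.50). Dclk1, a doublecortin-like kinase of growing neurons with a CaM kinase-like domain, went from 10.38 ± 0.25 to 9.84 ± 0.28, a difference of -0.54 (limma adjusted p = 0.16, and 0.011 with the replicate block). Eef2k, the calmodulin-dependent kinase of elongation factor 2, went from 9.78 ± 0.08 to 9.38 ± 0.06 with no overlap, a difference of -0.39 (limma adjusted p = 0.20, and 0.022 with the replicate block). A second probe set of Eef2k gave -0.32 (limma adjusted p = 0.34, and 0.064 with the block). Its direction was thus the same on both probe sets, and the second was under the fold of a call.

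Phkg1, a catalytic subunit of phosphorylase kinase, went from 8.02 ± 0.35 to 7.62 ± 0.37, a difference of -0.40 (limma adjusted p = 0.39, and 0.020 with the replicate block). Its groups overlapped, and each pair was lower. Dclk1 and Phkg1 are named because the block called them, which was seen before they were chosen.

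Among the opposing phosphatases, the 11 genes of calcineurin and its regulators had a median of 0.00, with Rcan1, an inhibitor of calcineurin, at -0.19 (limma without the filter, adjusted p = 0.45). Ppm1f, a phosphatase that removes the activating phosphate of CaM kinases, was also at -0.19 (limma with the filter, adjusted p = 0.59). Of the 4 genes for proteins that hold calmodulin in reserve, Pcp4 had the smallest p without the filter, and its difference was -0.10 (limma with the filter, adjusted p = 0.86). Syn1, a synaptic vesicle protein phosphorylated by CaM kinases, was at -0.26 (limma adjusted p = 0.44) among 12 partners and substrates with a median of -0.06.

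Downstream, 15 transcription factors and cofactors had a median of 0.00. Srf, the serum response factor, stood apart from them. It had 9.69, 9.40 and 9.46 in control arrays and 9.95, 9.95 and 10.09 after knockdown, with no overlap, a difference of 0.48 or 1.39-fold higher (limma adjusted p = 0.13, and 0.021 with the replicate block). Its direction was opposite to that of the kinase genes.

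**Figure D4:**
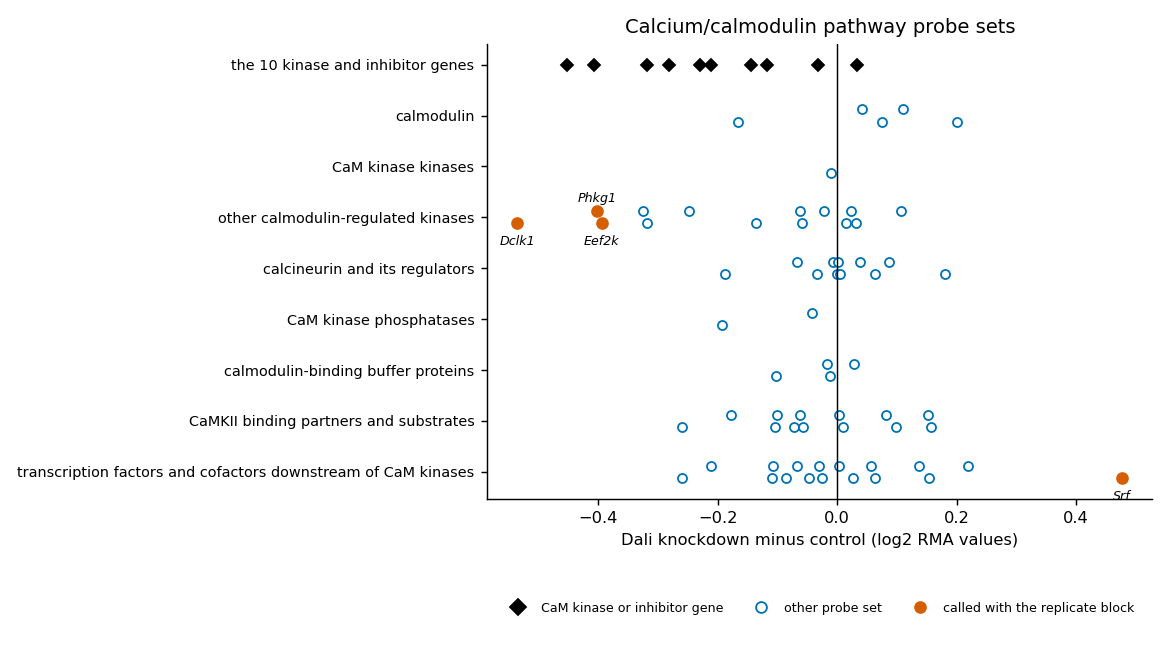
Difference in log2 RMA value, Dali knockdown minus control (horizontal axis), of single probe sets in 8 groups of calcium/calmodulin pathway genes (vertical axis), with the 10 kinase and inhibitor genes as diamonds in the top line. Filled circles are the probe sets called with the replicate block, Dclk1, Eef2k and Phkg1 on the lower side and Srf on the higher side, and open circles are the others.

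Markers of the line and of other cells were read beside these values. Of the neuroblastoma lineage markers, 8 of 10 were measured and lay between the 46.1st and 94.3rd percentile of annotated probe sets. The 8 neuronal markers had a median percentile of 87.3 but ranged from 14.0 (Nefm) to 98.6 (Stmn2), with Nefl at 16.1. Markers of astrocytes, Schwann cells and oligodendrocytes, fibroblasts, endothelium and leukocytes (20 of 23 measured) had a median percentile of 36.9. They ranged from 5.88 to 53.4 (Pecam1), so the lists overlapped in level. RMA values have no true zero from which absence could be read. Their mean log2 level was 7.32 to 7.40 over control arrays and 7.29 to 7.45 over knockdown arrays, and 0 of them were called by limma with or without the replicate block. Ddc, an enzyme of catecholamine synthesis, was the lineage marker that rose, from 7.71 ± 0.21 to 8.39 ± 0.27 (limma adjusted p = 0.079). The lineage list as a whole had a median difference of -0.15, with 5 of 8 markers lower and 0 of them called, among them Th and Isl1 at -0.25, Phox2a at -0.21 and Dbh at -0.20. Whether a shift of the line's state moved with the kinase genes was not tested.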

How the data were processed

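The deposited values are log2 expression levels of gene-level probe sets. Probe intensities had been corrected for background, quantile normalised and summarised by RMA by the authors with the oligo package (version not given in the sources used here). Its table held 35556 rows, 21789 with 1 gene symbol, 1621 with several and 12146 with none in the annotation used. The last were left out, rows with several symbols gave no gene its name, and no build is named for the array annotation. Array medians lay between 7.86 and 7.93, and the number of arrays limits the precision. Following the methods of the study, the groups were compared in R 4.3.3 by two-sided tests of limma 3.58.1 (eBayes after lmFit), after a variance filter read here as an interquartile range above the median. For every gene, the SE and the interval come from the fit over all annotated probe sets, with or without the block. Calls and adjusted p-values come from the filtered fit. For a gene that this filter removed, the adjusted p comes from the unfiltered fit. The procedure was tested on simulated data. Those values were drawn independently for each array, without the component shared by the real arrays. That test therefore cannot show how the fit behaves in its presence.

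The family and the pathway and marker lists were chosen with earlier results of these data known. All family genes were named, together with, in each pathway group, up to 2 called genes or otherwise the gene with the smallest p without the filter, and the 5 genes most correlated with each of the leading members. Pnck is named because it is a CaMKI gene. Arrays sharing a replicate number in the labels had correlated deviations from their group means (r = 0.14, 0.65 and 0.65 for numbers 1, 2 and 3). All were above the bound of 0.1, so the numbers were taken as pairs. Control replicate 1 correlated more with knockdown replicate 2 (r = 0.20), so for number 1 these values do not single out the labelled pair. Deviations from a group mean cancel out within the group, so the values for numbers 2 and 3 are not separate evidence of pairing. The samples are described as biological replicates without naming their cultures, so p-values cover the spread among these arrays. Alternatives were no filter, unannotated rows included, the block, median centring, eBayes with trend and robust estimation, a stricter threshold, each array left out, and the principal component as covariate.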

Additional observations from a re-analysis of the deposited data

How the results depend on the processing

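The probe sets called over the whole array numbered 133, and 41 without the variance filter, 0 with unannotated rows included, 896 with the replicate block, 213 with arrays centred on their median, 427 with trend and robust estimation, 32 at an adjusted p under 0.05, 499 with the first principal component as covariate, and 9 (without knockdown replicate 1) to 746 (without control replicate 3) with an array left out. Without knockdown replicate 2 it was 715, without control replicates 1 and 2 it was 74 and 66, and without knockdown replicate 3 it was 123. Of the kinase and inhibitor genes, 0 were called as reported, 2 with the replicate block, 1 (Camk1d) with trend and robust estimation, 1 (Camk1d) with the component, and 0 to 2 with an array left out. Of the pathway genes, 0 were called as reported, 4 with the replicate block, 2 with trend and robust estimation, 1 with the component, and 0 to 3 with an array left out, where control replicate 3 gave 2 and knockdown replicate 2 gave 3. The block changed no other call among the genes of the family and pathway. The median difference over the family, -0.22, was -0.15 with the component, -0.31 without control replicate 3 and -0.14 without knockdown replicate 3. Camk1d, Camk2b, Camk2g, Camk2n1 and Camk4 kept their sign in each of 9 refits, whereas Camk1 and Camk2d changed it in 1 and Camk1g, Camk2a and Camk2n2 in 2. The block leaves every difference as it was, and median centring moves all genes by the same amount. The other refits reuse the same arrays, so the 9 are not separate tests. Median centring moved the median of all probe sets from 0.016 to 0.046. The cause of these shifts was not tested.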
